A study of Mus musculus with 22 samples.

Results

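Microglia, the resident macrophages of the brain, release growth factors that act on neurons, oligodendrocyte precursors, vessels and on the microglia themselves. The 8 genes followed here encode such factors: insulin-like growth factor 1 (Igf1), the platelet-derived growth factor chains Pdgfa, Pdgfb and Pdgfc, transforming growth factor beta 1 (Tgfb1), heparin-binding EGF-like growth factor (Hbegf), oncostatin M (Osm) and vascular endothelial growth factor B (Vegfb). They were taken by name, each as its 1 probe set that maps to that gene alone, out of 19937 genes on the array. Of these, 7 passed the filter on dim genes together with 11830 genes in all, and Pdgfc did not.

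Igf1 promotes the survival and growth of oligodendrocytes and neurons through the receptor tyrosine kinase Igf1r. The PDGF chains signal through Pdgfra, carried by oligodendrocyte precursors, and Pdgfrb, carried by pericytes, and Vegfb binds Flt1. Tgfb1 is secreted in a latent form and keeps microglia in their resting identity, Hbegf is shed from the cell surface to activate the EGF receptor, and Osm is a cytokine of the interleukin-6 family that signals through gp130 (Il6st) with Osmr or Lifr.

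RNA came from cells sorted out of mouse brain as F4/80, CD45 and CD11b positive and was hybridised to 22 Affymetrix MoGene 1.0 ST arrays. Mice were Trem2 knockout (KO; Trem2 is a lipid-sensing receptor of myeloid cells) or wild type (WT), and ate feed with 0.2% cuprizone, a copper chelator that kills oligodendrocytes, with 0.1% Covi-Ox T70 mixed tocopherols plus extra alpha tocopherol (vitamin E compounds), with both additives, or with neither. The groups were KO cuprizone (3 arrays), KO control (2), WT both (3), WT cuprizone (3), WT Covi-Ox (3) and WT control (2), and the treated groups had been fed for 4 weeks. Per the labels' protocols, mice on both additives first had 2 weeks of Covi-Ox, and mice on cuprizone alone 2 weeks of normal chow. The other 6 KO arrays carry contradictory labels. In set A (3 arrays) the title names both additives and the remaining fields name Covi-Ox alone, and in set B (3 arrays) it is the reverse. Both readings of both sets include Covi-Ox, and neither reading was chosen. The mice's ages and the kind of Trem2 allele are not stated in the labels, nor whether replicates were separate mice, so the p-values reflect the spread of these samples alone, which may be technical.

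Levels are given as log2 of the deposited intensity. Array medians lay between 5.17 and 5.27, and a level near or below them is not exact. Trem2 ran from 6.40 to 6.83 on the 11 KO arrays and from 10.0 to 10.8 on the 11 WT arrays, so the arrays match their genotype labels. All 9 measured microglial markers of 10 listed lay above the array median on every array. The mean of 30 immediate-early genes, which respond fast to stimulation and to tissue dissociation, stood apart on 3 arrays, KO cuprizone 2 (8.52), KO cuprizone 3 (8.56) and WT cuprizone 3 (8.26), against 9.49 to 9.77 on the other 19. These are called the 3 low arrays. For the growth factors, many of the results that rest on them are given with and without them, and the others with all arrays only. Differences of other genes and of gene lists are given with all arrays only. Of the neutrophil markers, Mmp8 and Cxcr2 lay above the median on no array, while the summed intensity of all 10 ranged from 201 to 3433 between arrays, mostly through S100a8 and S100a9. In such bulk samples fewer cells of a type and less RNA per cell cannot be told apart.

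Across the 22 arrays Igf1 and Osm varied most, over 2.71 and 2.36 on the log2 scale. Hbegf spanned 1.55, Pdgfb 0.82, Pdgfa 0.72, Vegfb 0.57 and Tgfb1 0.43. The SD between arrays of the same group was 0.28 for Igf1, 0.41 for Osm, 0.32 for Hbegf, 0.20 for Pdgfb, 0.15 for Vegfb, 0.14 for Pdgfa and 0.12 for Tgfb1. Over all 22 arrays the SD was 0.12 for Tgfb1 and 0.15 for Vegfb, the same as within groups, against 0.96 for Igf1 and 0.75 for Osm.

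**Figure D1:**
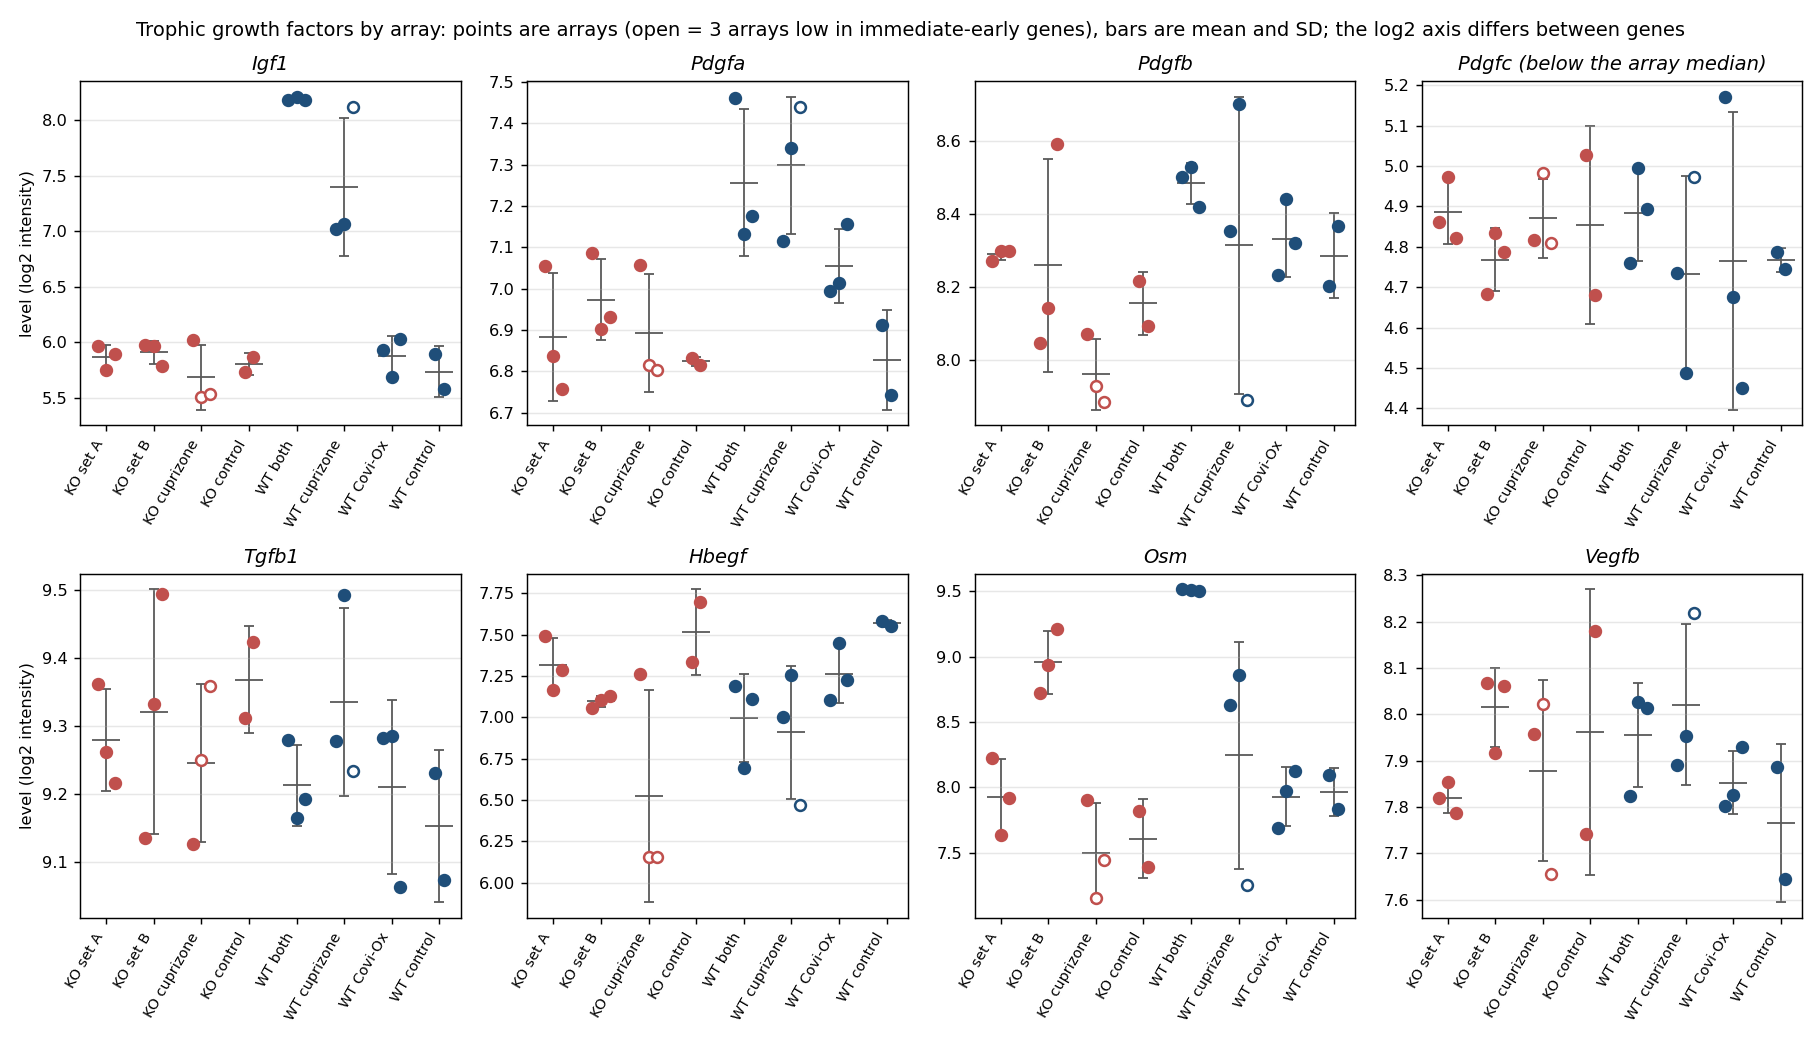
Level (log2 intensity) of the 8 trophic factors on each of 22 arrays, with KO groups in red left of WT groups in blue. Points are arrays, open points are the 3 low arrays, and the bars give mean and SD (n = 2 or 3). Igf1 lies at 7.02 or above on the 6 arrays of WT mice fed cuprizone and at 6.03 or below on the other 16. Each panel has its own scale.

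Igf1 rose in WT microglia with cuprizone feeding on both backgrounds. It stood at 7.02, 7.06 and 8.12 in WT cuprizone, against 5.90 and 5.58 in WT control, which made 1.66 ± 0.23 (SE of the log2 difference, n = 3 and 2) or 3.17-fold (limma, adjusted p = 0.000475). It stood at 8.19, 8.21 and 8.18 in WT both, against 5.93, 5.68 and 6.03 in WT Covi-Ox, which made 2.31 ± 0.21 (n = 3 and 3) or 4.97-fold (adjusted p = 5.38e-07). These comparisons share no array, and in each all arrays on cuprizone lay above all arrays without it. The lower groups lie less than 1 log2 unit above the array medians, so the folds are not exact. Without the 3 low arrays the WT cuprizone difference was 1.30 and remained called (adjusted p = 2.15e-05). Called here means an adjusted p under 0.05, with p-values adjusted by the Benjamini-Hochberg method over all 11830 genes.

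In KO microglia Igf1 stayed at the level of the mice without cuprizone. It stood at 6.03, 5.51 and 5.53 in KO cuprizone, against 5.73 and 5.87 in KO control, a difference of -0.11 ± 0.23 (95% interval -0.60 to 0.37, adjusted p = 0.885). KO cuprizone minus WT cuprizone was -1.71 ± 0.21 (n = 3 and 3, adjusted p = 4.06e-05) with no overlap of the groups, and -1.02 without the 3 low arrays (adjusted p = 0.00434). Without them KO cuprizone is 1 array, here and wherever they are left out, and its spread is taken from the other groups. KO control differed from WT control by 0.06 ± 0.25 (adjusted p = 0.950). The test of the difference itself, KO cuprizone minus KO control less WT cuprizone minus WT control, gave -1.78 ± 0.33 (95% interval -2.46 to -1.09, adjusted p = 0.0250). That call was lost without the 3 low arrays (-1.08, adjusted p = 0.0539, with that single KO cuprizone array), without either WT control array, without KO control 2, and without KO cuprizone 2 or KO cuprizone 3.

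The sets with contradictory labels showed the same low level of Igf1, with 5.96, 5.75 and 5.89 in KO set A and 5.97, 5.97 and 5.79 in KO set B. Set A minus WT both was -2.33 ± 0.21 (adjusted p = 2.52e-07) and set B minus WT both, which shares the WT arrays, -2.29 ± 0.21 (adjusted p = 4.96e-07). Against WT Covi-Ox set A differed by -0.01 ± 0.21 (95% interval -0.45 to 0.42, adjusted p = 0.999) and set B by 0.03 ± 0.21 (95% interval -0.41 to 0.46, adjusted p = 0.979). Set B and set A differed by 0.04 ± 0.21, so Igf1 was low under either reading of the labels. Averaged over the 4 diets, a contrast that does not depend on how the sets are read, Igf1 fell in KO relative to WT (-0.99 ± 0.11, 0.505-fold, adjusted p = 6.43e-06).

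Whether Covi-Ox changed the Igf1 response in WT depended on WT cuprizone 3, the array with the lowest immediate-early genes and the highest Igf1 of its group. WT both minus WT cuprizone was 0.80 ± 0.21 (n = 3 and 3, adjusted p = 0.175) and all 3 arrays of WT both lay above all 3 of WT cuprizone. Without the 3 low arrays it was 1.15 (adjusted p = 5.86e-05). The difference of the cuprizone effects with and without Covi-Ox was 0.65 ± 0.31 (adjusted p = 0.750), and 1.01 without the 3 low arrays (adjusted p = 0.0141). WT Covi-Ox minus WT control was 0.14 ± 0.23 (adjusted p = 0.939). In order of mean level the groups ran WT both (8.20), WT cuprizone (7.40), KO set B (5.91), WT Covi-Ox (5.88), KO set A (5.87), KO control (5.80), WT control (5.74) and KO cuprizone (5.69), and neighbours overlapped from KO set B downwards.

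The summed intensity of 8 border macrophage markers was 1432 to 1862 in WT both against 2493 to 3145 in WT Covi-Ox, and 1701 to 2287 in WT cuprizone against 3020 to 3148 in WT control. The same sum was also 1481 to 2130 in KO set B and 1323 to 3081 in KO cuprizone, where Igf1 was 6.03 or below. Pf4 and Mrc1 were the brightest of the 8 and weigh most in this sum, so it need not follow the dimmer markers. The microglial markers summed to 20472 to 20928 in WT both against 26634 to 26970 in WT Covi-Ox, and 6 of the 9 measured fell, where 3.17% of all genes were called lower. The part of these shifts in the Igf1 difference was not tested.

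The Igf1 start used by RefSeq (GRCm38.p6, plus strand, chr10:87860861-87861110 for the 250 bases before it) is shown because Igf1 moved most. Capitals mark the only match among 6 motifs searched on both strands, 37 bases before the start. It matches TGANTCA, an AP-1-like pattern that allows any base (N) in the middle, here A, and is looser than a strict AP-1 element.
Igf1: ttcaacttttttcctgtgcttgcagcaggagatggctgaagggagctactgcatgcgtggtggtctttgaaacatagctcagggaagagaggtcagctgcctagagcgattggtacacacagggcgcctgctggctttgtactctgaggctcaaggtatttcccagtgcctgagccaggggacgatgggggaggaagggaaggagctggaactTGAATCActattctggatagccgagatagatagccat
Matches to TGANTCA, with any middle base, occur in 6.75% of the 32851 RefSeq promoters of the same length. The other motifs were the cAMP response element TGACGTCA (1.55% of promoters), the E-box CACGTG (6.02%), the GC box GGGCGG (32.7%), the PU.1 site GAGGAAGT (2.44%) and the STAT site TTCNNNGAA (7.02%). No 2 different motifs overlapped in the windows shown here, and a match describes letters only. RefSeq promoter sequences matched 5 of the 8 factors.

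Osm, like Igf1, was highest in WT both, but KO set B came next. It stood at 9.51, 9.51 and 9.50 in WT both, against 7.69, 7.97 and 8.13 in WT Covi-Ox, a difference of 1.58 ± 0.29 (n = 3 and 3) or 2.99-fold (adjusted p = 0.00157). The arrays of WT both lay above every other array of the study. In WT cuprizone it stood at 8.63, 8.86 and 7.25, against 8.09 and 7.84 in WT control, a difference of 0.28 ± 0.32 (adjusted p = 0.726). The third WT cuprizone array, one of the 3 low arrays, was the lowest of all WT arrays for Osm. The first and second WT cuprizone arrays lay above both WT control arrays, so the difference of 0.28 depends on the third. The difference without it is not given here. WT both minus WT cuprizone was 1.26 ± 0.29 (adjusted p = 0.103), and 0.76 without the 3 low arrays (adjusted p = 0.0519).

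In KO microglia Osm stood at 8.73, 8.93 and 9.21 in set B, at 8.22, 7.64 and 7.92 in set A, at 7.90, 7.15 and 7.45 in KO cuprizone, and at 7.82 and 7.39 in KO control. All set B arrays lay above all other KO arrays. Set B minus KO cuprizone was 1.46 ± 0.29 or 2.74-fold and was called (adjusted p = 0.0471), but KO cuprizone holds 2 of the 3 low arrays and without these the difference was 1.05 (adjusted p = 0.111). Of 32 alternative settings, 25 lost that call. Set B minus KO control, which holds none of the 3 low arrays, was 1.35 ± 0.32 (adjusted p = 0.0593), and when they were left out of the fit the difference stayed at 1.35 with an adjusted p of 0.000734. Set B minus set A was 1.03 ± 0.29 (adjusted p = 0.211), and the same size with an adjusted p of 0.00608 without the 3 low arrays. KO cuprizone minus WT cuprizone was -0.75 ± 0.29 (adjusted p = 0.162), -1.24 without WT cuprizone 3 (adjusted p = 0.00199), and -0.84 without all 3 low arrays (adjusted p = 0.155). KO cuprizone minus KO control was -0.11 ± 0.32 (95% interval -0.78 to 0.57, adjusted p = 0.933). KO cuprizone 1, the array of that group that was not low, lay above both KO control arrays, at 7.90.

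Osm was lower in KO set A than in WT both (-1.58 ± 0.29, 0.334-fold, adjusted p = 0.00115), a call that held in all 32 alternatives. Against WT Covi-Ox, the other reading of its labels, set A differed by -0.003 ± 0.29 (95% interval -0.61 to 0.60, adjusted p = 0.9996). Whether the set A call is a genotype difference on the same diet thus depends on the reading. Set B lay -0.55 ± 0.29 from WT both (95% interval -1.16 to 0.05, adjusted p = 0.395) and 1.03 ± 0.29 from WT Covi-Ox (adjusted p = 0.218, and 0.00468 without the 3 low arrays). Over the 4 diets KO minus WT was -0.41 ± 0.15 (adjusted p = 0.118, and 0.0134 without the 3 low arrays). The summed neutrophil markers were 256 to 834 in set B, 354 to 417 in set A, 1082 to 3420 in KO cuprizone and 2037 to 2093 in KO control. In WT they were 403 to 582 in WT both against 201 to 280 in WT Covi-Ox, where S100a8 rose by 2.66 (adjusted p = 0.0111), and 3389 to 3433 in WT control, where Osm was 7.84 to 8.09. The summed border macrophage markers, given above for WT, were 1481 to 2130 in set B, 2280 to 2988 in set A, 1323 to 3081 in KO cuprizone and 2536 to 2546 in KO control. The part of either cell type in the Osm differences was not tested.

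**Figure D2:**
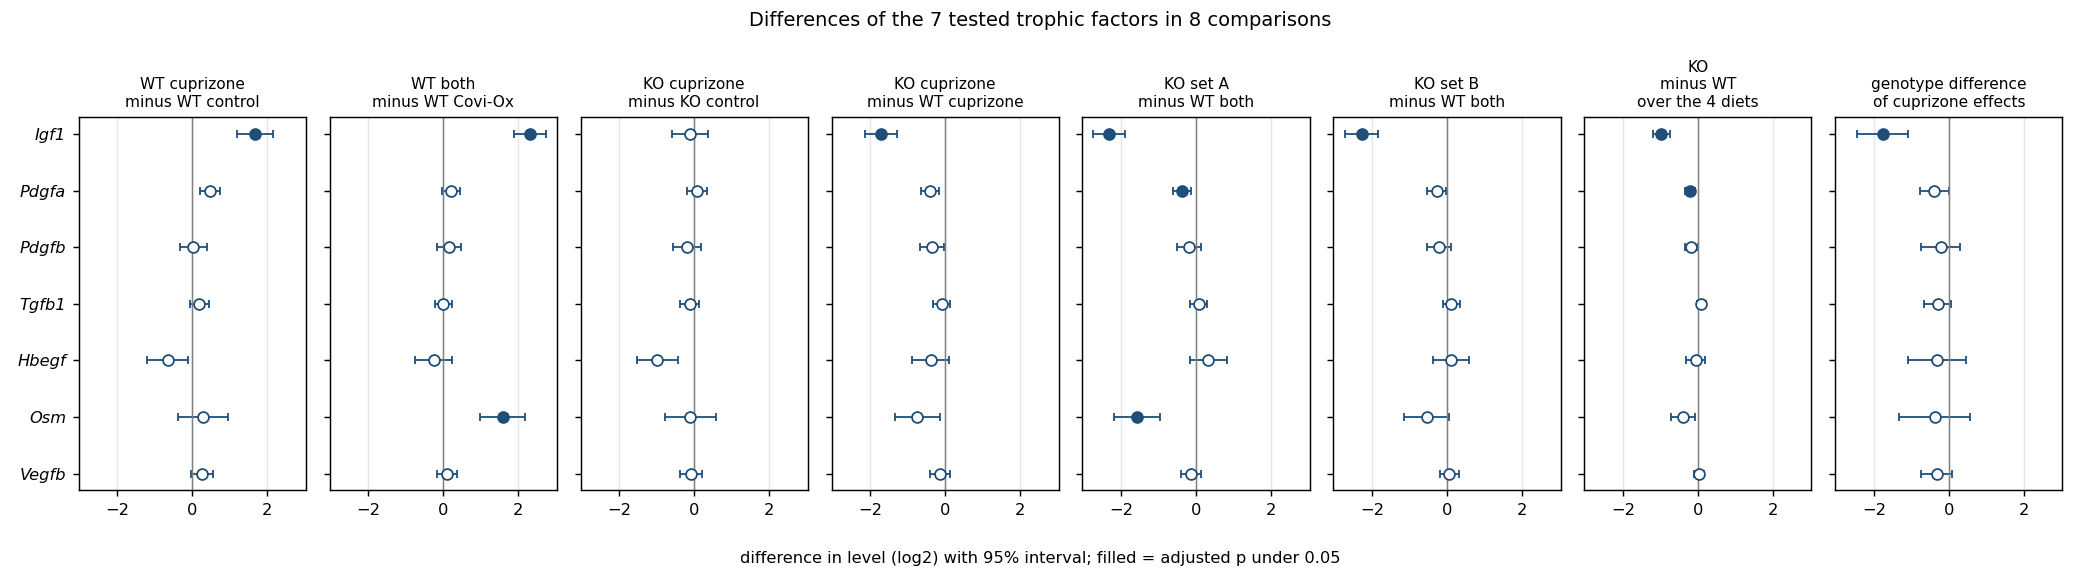
Difference in level (log2) with its 95% interval for the 7 tested trophic factors in 8 comparisons, with filled points called at an adjusted p under 0.05. Igf1 is called in 7 of the 8 panels and Osm in 2, and the intervals of Tgfb1 and Vegfb cross 0 in all 8.

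Hbegf was the factor most closely tied to the 3 low arrays. It stood at 7.26, 6.15 and 6.15 in KO cuprizone, against 7.33 and 7.70 in KO control, a difference of -0.99 ± 0.26 (adjusted p = 0.135). In WT cuprizone it stood at 7.00, 7.26 and 6.47, against 7.58 and 7.55 in WT control, a difference of -0.66 ± 0.26 (adjusted p = 0.212). In both genotypes every cuprizone array lay below every control array, and neither difference was called. The same separation was seen for 11% of all genes in KO and 17.6% in WT. The 3 low arrays held the lowest Hbegf values of the study, from 6.15 to 6.47, against 6.69 to 7.70 on the other 19. Without them KO cuprizone, then 1 array, lay -0.25 from KO control (adjusted p = 0.786, taking its spread from the other groups). Without KO cuprizone 1, the array of that group that was not low, it was -1.36 and called (adjusted p = 0.00940), as it was without KO control 1 (-1.17, adjusted p = 0.0417). In WT both Hbegf stood at 7.19, 6.69 and 7.11, against 7.11, 7.45 and 7.23 in WT Covi-Ox (-0.26 ± 0.23, adjusted p = 0.598). Hbegf over the 4 diets did not separate the genotypes (KO minus WT -0.07 ± 0.12, adjusted p = 0.769).

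**Figure D3:**
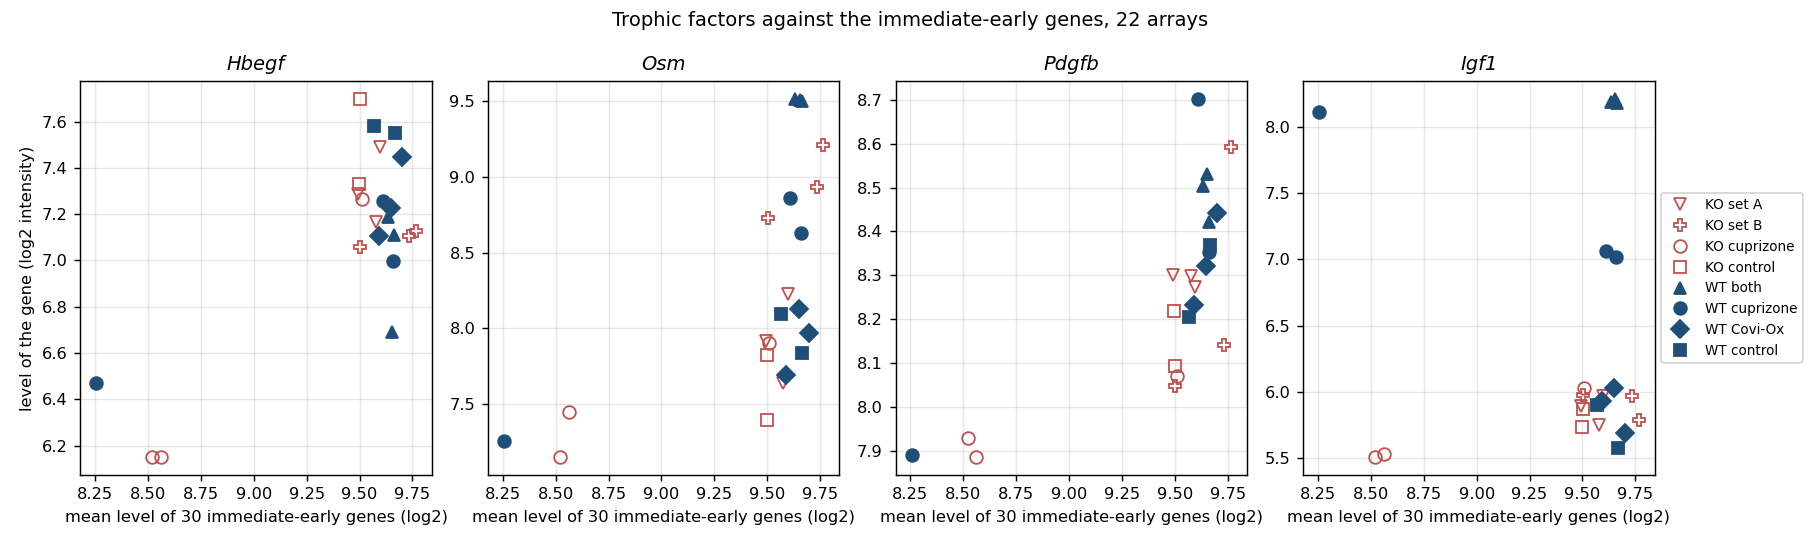
Level of Hbegf, Osm, Pdgfb and Igf1 (log2 intensity) against the mean level of 30 immediate-early genes (log2) on 22 arrays, with KO as open and WT as filled symbols. The 3 low arrays sit at the left with the lowest Hbegf (6.15 to 6.47), whereas Igf1 among them ranges from 5.51 to 8.12.

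The PDGF chains moved little. Pdgfa stood at 7.11, 7.34 and 7.44 in WT cuprizone, against 6.91 and 6.74 in WT control, with no overlap and a difference of 0.47 ± 0.13 or 1.39-fold (adjusted p = 0.0594). KO cuprizone, at 7.06, 6.82 and 6.80, lay -0.41 ± 0.12 from WT cuprizone (adjusted p = 0.0591). Each of these differences passed the threshold when WT cuprizone 1 or KO cuprizone 1 was left out. Without the 3 low arrays KO cuprizone, then 1 array, lay only -0.17 from WT cuprizone. Over the 4 diets Pdgfa fell in KO relative to WT (-0.22 ± 0.06, 0.861-fold, adjusted p = 0.0429). It was also lower in set A, at 7.06, 6.84 and 6.76, than in WT both, at 7.46, 7.13 and 7.18 (-0.37 ± 0.12, adjusted p = 0.0494). Both calls lay close to the threshold and were lost in 18 and 23 of the 32 alternatives. Under the other reading, set A lay -0.17 ± 0.12 from WT Covi-Ox (adjusted p = 0.999). Set B lay -0.28 ± 0.12 from WT both (adjusted p = 0.239) and -0.08 ± 0.12 from WT Covi-Ox (adjusted p = 0.876). Without the 3 low arrays the difference over the diets was -0.16 (adjusted p = 0.199).

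RefSeq gives Pdgfa 2 starts on the minus strand, both with GC boxes (GGGCGG, on either strand, in capitals), which are shown because Pdgfa was the only other factor called between the genotypes over all diets. The 250 bases before each start lie at chr5:138994282-138994531 and chr5:138994945-138995194 (GRCm38.p6). They hold 1 and 2 GC boxes and none of the other 5 motifs.
Pdgfa, first window: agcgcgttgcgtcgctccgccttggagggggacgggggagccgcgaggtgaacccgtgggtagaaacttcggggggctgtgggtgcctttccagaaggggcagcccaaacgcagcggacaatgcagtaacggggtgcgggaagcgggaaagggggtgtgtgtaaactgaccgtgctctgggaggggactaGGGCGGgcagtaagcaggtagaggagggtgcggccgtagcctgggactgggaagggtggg
Pdgfa, second window: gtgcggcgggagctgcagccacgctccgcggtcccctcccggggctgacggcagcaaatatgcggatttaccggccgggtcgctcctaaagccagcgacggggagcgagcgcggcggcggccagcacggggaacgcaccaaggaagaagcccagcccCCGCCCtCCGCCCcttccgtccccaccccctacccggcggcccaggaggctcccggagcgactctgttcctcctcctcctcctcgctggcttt
The array measures the gene with 1 probe set, so the starts cannot be told apart.

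Pdgfb was not called in any of the 19 comparisons. It stood at 8.07, 7.93 and 7.89 in KO cuprizone, against 8.35, 8.70 and 7.89 in WT cuprizone, a difference of -0.35 ± 0.16 (adjusted p = 0.221). The 3 low arrays held its 3 lowest values, 7.89 to 7.93, against 8.05 to 8.70 on the other 19. Without WT cuprizone 3 alone, KO cuprizone minus WT cuprizone passed the threshold (-0.57, adjusted p = 0.0358), and without all 3 low arrays it did not (-0.46, adjusted p = 0.369). Pdgfc, at 4.45 to 5.17, lay above the array median on 0 of 22 arrays and was not tested. Its group means ran from 4.73 in WT cuprizone to 4.89 in KO set A, and every group overlapped its neighbour in that order. With no filter on dim genes the difference between WT cuprizone and WT control was -0.03 (adjusted p = 0.971).

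Tgfb1 and Vegfb did not pass the test in any of the 19 comparisons. Tgfb1 stood at 9.28, 9.49 and 9.23 in WT cuprizone, against 9.23 and 9.07 in WT control (0.18 ± 0.12, adjusted p = 0.483). It stood at 9.28, 9.17 and 9.19 in WT both, against 9.28, 9.29 and 9.06 in WT Covi-Ox, with a 95% interval of the difference of -0.22 to 0.23. All 8 groups overlapped their neighbours in order of mean Tgfb1 level, from 9.37 in KO control down to 9.15 in WT control. Over the 4 diets KO minus WT was 0.08 ± 0.06 (95% interval -0.04 to 0.20). Vegfb stood at 7.89, 7.95 and 8.22 in WT cuprizone, against 7.89 and 7.64 in WT control (0.26 ± 0.14, adjusted p = 0.380). Over the 4 diets it differed between KO and WT by 0.02 ± 0.07 (95% interval -0.12 to 0.16).

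The 250 bases before the Tgfb1 start (GRCm38.p6, plus strand, chr7:25686752-25687001) are shown as the promoter of the factor that varied least. They hold 5 GC boxes (capitals, on either strand) and none of the other 5 motifs.
Tgfb1: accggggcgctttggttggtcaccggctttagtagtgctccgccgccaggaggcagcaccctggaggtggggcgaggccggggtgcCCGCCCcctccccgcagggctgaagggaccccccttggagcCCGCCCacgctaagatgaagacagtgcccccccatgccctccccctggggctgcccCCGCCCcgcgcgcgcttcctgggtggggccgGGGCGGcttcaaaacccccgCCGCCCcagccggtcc
The Vegfb window (chr19:6987652-6987901, minus strand) holds 4 GC boxes, and the Pdgfc window none of the 6 motifs.

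Of the 7 tested factors few were called in any comparison. In WT cuprizone against WT control 1 was called higher, where 1.8% of all genes were, and 5 of 7 had groups that did not overlap, as 32.9% of all genes did. In WT both against WT Covi-Ox 2 were called higher, where 4.65% of all genes were. In KO cuprizone against KO control limma called 0, where 0.0423% of all genes were called, and 1 of 7 (Hbegf) had an unadjusted p under 0.05, as did 13.4% of all genes. That share of called genes rose strongly when KO control 1 was left out, a fit that leaves 1 array in that group. The low share therefore does not show that KO cells lacked a response. In KO cuprizone against WT cuprizone 1 was called lower, where 2.98% of all genes were. The difference of the cuprizone effects between genotypes had 1 called lower, beside 0.186% of all genes, and KO minus WT over the 4 diets had 2 called lower, beside 4.69%. For set A against WT both 3 were called lower, beside 5.6%, and for set B against WT both 1 was called lower, beside 2.62%. For set B against KO cuprizone 1 was called higher, beside 0.093%.

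In the other 10 comparisons limma called 0 of the 7 factors. The share of all genes called was 0.744% for set B against KO control, 0.245% for set B and 0.161% for set A against WT Covi-Ox, and 0.152% for WT both against WT cuprizone. It was 0.0676% for KO control against WT control, 0.0338% for WT Covi-Ox against WT control and for set A against KO control, 0.0254% for the Covi-Ox difference of cuprizone effects, 0.00845% for set B against set A, and 0% for set A against KO cuprizone. The shares of the comparisons with KO control likewise rose strongly when KO control 1 was left out. In these 10 comparisons 0 to 2 of the 7 factors had an unadjusted p under 0.05 (Igf1, Osm, Hbegf or Pdgfb), as did 4.9% to 14.2% of all genes.

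Genes that receive or shape these signals were taken as lists. The differences of these and the other listed genes are given with all arrays only. Comparisons with KO cuprizone or WT cuprizone therefore include low arrays, and whether calls of listed genes there rest on them was not tested. In the IGF list (receptors, binding proteins and substrates, 7 of 16 tested) 0 genes were called in WT cuprizone against WT control or in WT both against WT Covi-Ox, with 1 and 0 at an unadjusted p under 0.05, as were 16.7% and 20.8% of all genes. The receptor Igf1r was called over the 4 diets, lower in KO (KO minus WT -0.23 ± 0.06, adjusted p = 0.0196). In the PDGF and VEGF list (5 of 15 tested) Flt1, the Vegfb receptor, rose by 1.46 ± 0.29 in WT cuprizone against WT control (adjusted p = 0.00882) and by 2.37 ± 0.26 in WT both against WT Covi-Ox (adjusted p = 6.96e-06). Flt1 lay between 4.38 and 4.76 in the 6 groups other than WT both and WT cuprizone, below the array medians, so those folds are not exact. Flt1 thus passed the filter on dim genes only through WT both and WT cuprizone. That it was tested at all was not independent of its rise there. Vegfa, the main angiogenic factor of the family, rose by 1.34 ± 0.19 in WT both against WT Covi-Ox (adjusted p = 9.78e-05) and fell by 0.73 ± 0.19 in KO cuprizone against WT cuprizone (adjusted p = 0.0340). The co-receptor Nrp1 rose by 0.59 ± 0.17 in WT both against WT Covi-Ox (adjusted p = 0.0408), and Nrp2 fell by 0.49 ± 0.11 in KO cuprizone against WT cuprizone (adjusted p = 0.0182). Pdgfra and Pdgfrb, the receptors of the PDGF chains, stayed below 5 on all arrays and were not tested, nor was Osmr, the Osm receptor, at 3.25 to 3.95.

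In the TGF-beta list (21 of 27 tested) 1 gene rose and 3 fell in WT both against WT Covi-Ox, where 4.65% of all genes rose and 3.17% fell, with a list median of -0.19 beside -0.03 for all genes. The activator Thbs1 rose by 0.89 ± 0.16 (adjusted p = 0.00151), and the receptor Eng fell by 0.49 ± 0.10 (adjusted p = 0.00267) and the receptor Tgfbr1 fell by 0.37 ± 0.10 (adjusted p = 0.0310). The integrin chain Itgav fell by 0.28 ± 0.08 (adjusted p = 0.0455). Of 12 tested microglial genes known to depend on TGF-beta, 8 fell in WT both against WT Covi-Ox, beside 3.17% of all genes, among them the receptor P2ry12 (-0.39 ± 0.08, adjusted p = 0.00409), Tmem119 (-0.61 ± 0.09, adjusted p = 0.00023) and the transcription factor Sall1 (-0.54 ± 0.13, adjusted p = 0.0140). In KO cuprizone against WT cuprizone 5 of the 12 were called higher, beside 0.82% of all genes, and 0 lower. In WT cuprizone against WT control limma called 0, with 4 at an unadjusted p under 0.05, beside 16.7% of all genes. Several of these genes are also among the microglial markers above, which fell in the same comparison, and Tgfb1 itself was not called.

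In the OSM and gp130 list (11 of 16 tested) 1 gene rose and 2 fell in WT both against WT Covi-Ox, beside 4.65% and 3.17% of all genes. The cytokine Il6 rose by 1.24 ± 0.25 (adjusted p = 0.00367), and the receptor Lifr fell by 0.94 ± 0.13 (adjusted p = 5.44e-05) and the receptor Il6ra fell by 0.61 ± 0.14 (adjusted p = 0.00909). Il6st, the shared gp130 receptor, was higher in KO cuprizone than in WT cuprizone by 0.68 ± 0.13 (adjusted p = 0.00616). In the EGF list (11 of 18 tested) limma called 0 in WT both against WT Covi-Ox, with 3 at an unadjusted p under 0.05, beside 20.8% of all genes. Rhbdf2, which escorts the sheddase that releases Hbegf, fell by 0.57 ± 0.14 in KO cuprizone against WT cuprizone (adjusted p = 0.0236). Cd9, a tetraspanin that associates with the Hbegf precursor, fell by 1.03 ± 0.20 in set A against WT both (adjusted p = 0.00194). It was not called in set A against WT Covi-Ox, the other reading of the labels, nor in set B against WT both. Over the 4 diets KO minus WT for Cd9 was -0.43 ± 0.11 (adjusted p = 0.0201).

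**Figure D4:**
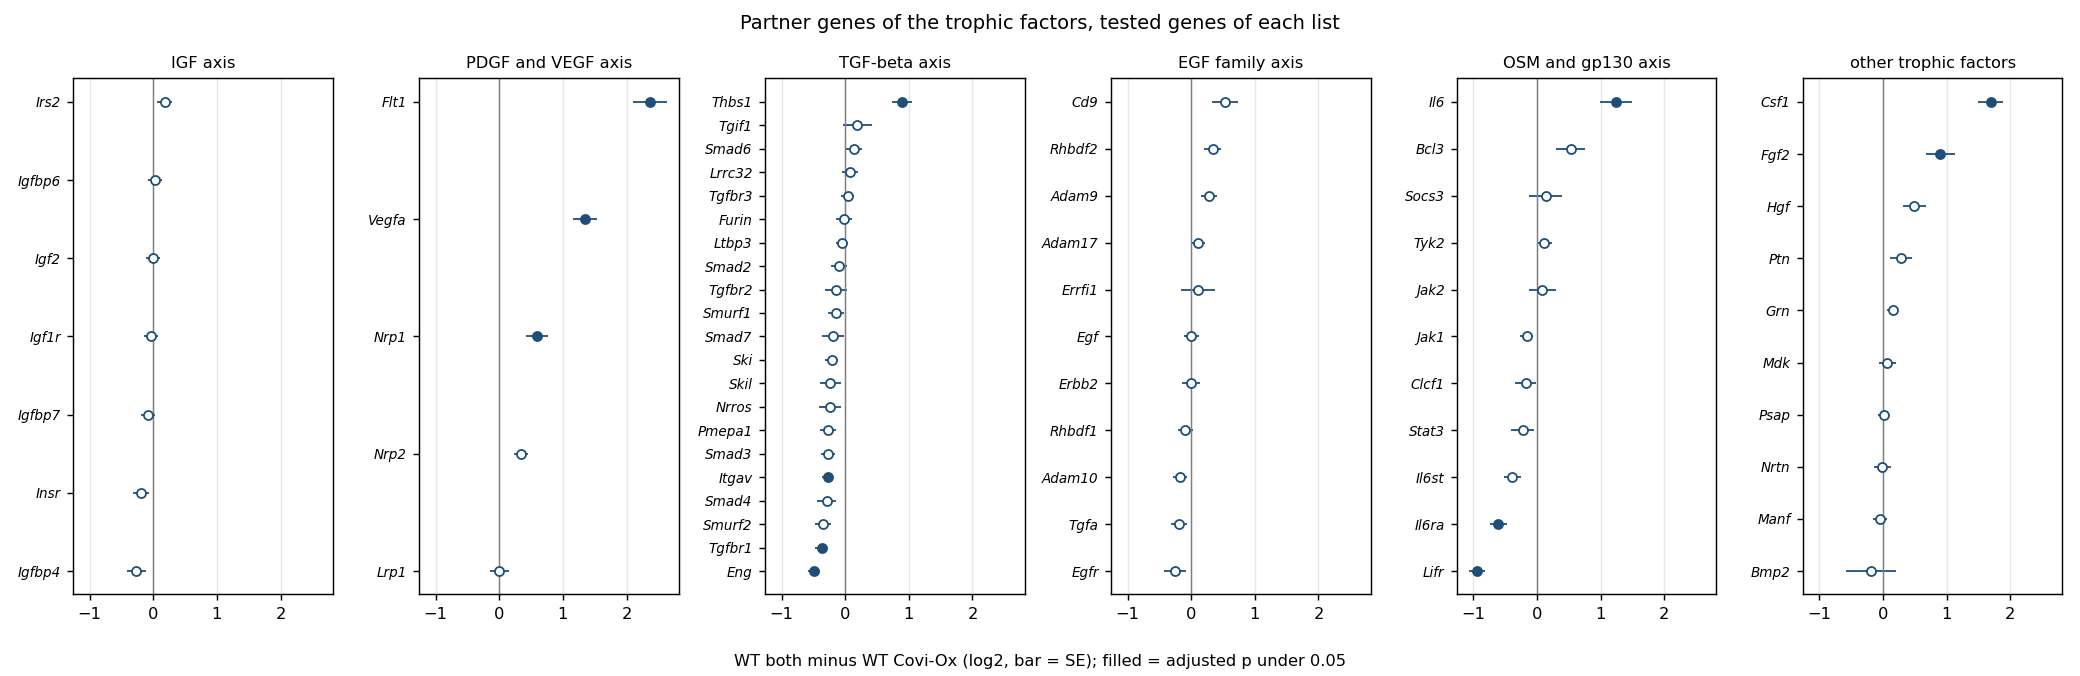
Difference (log2, bars are SE) between WT both and WT Covi-Ox for the tested genes of 6 partner lists, with filled points called at an adjusted p under 0.05. Flt1 (2.37), Csf1 (1.69), Vegfa (1.34) and Il6 (1.24) lie farthest to the right. Flt1 passed the filter on dim genes only through WT both and WT cuprizone.

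Among other trophic factors (10 of 22 tested) Csf1, the growth factor of microglia themselves, was 9.56 to 9.71 in WT cuprizone against 7.43 to 7.57 in WT control (2.15 ± 0.23, adjusted p = 1.31e-05), and 9.91 to 10.1 in WT both against 8.06 to 8.48 in WT Covi-Ox (1.69 ± 0.20, adjusted p = 1.92e-05). KO cuprizone minus WT cuprizone was -2.13 ± 0.20 (adjusted p = 1.76e-06), and the difference of the cuprizone effects between genotypes was called (-1.85 ± 0.32, adjusted p = 0.0163). Csf1 was higher in set B than in KO control by 1.26 ± 0.23 (adjusted p = 0.0172), while the Igf1 difference between them was 0.11 ± 0.23 (adjusted p = 0.888). Fgf2 rose by 0.90 ± 0.22 in WT both against WT Covi-Ox (adjusted p = 0.0160), and Hgf was lower in KO over the 4 diets (KO minus WT -0.35 ± 0.10, adjusted p = 0.0359).

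The genes whose levels ran most like each factor, by Pearson r over all 22 arrays with the 3 low arrays included, share its groups, and no test is attached. For Igf1 they were Bhlhe40 (0.986), Flt1 (0.978) and Fabp5 (0.973). For Osm they were Cxcl10 (0.941), Tnfsf9 (0.918) and Ptgs2 (0.913), and for Hbegf Ubxn4 (0.928), Sertad1 (0.901) and Cited2 (0.888). For Pdgfa they were Mfsd12 (0.904), Coro1c (0.853) and Aldoa (0.845), and for Pdgfb C5ar1 (0.883), Ets2 (0.826) and Plekho2 (0.805). Vegfb (Map4k1 0.790, Aif1 0.769, Cenpa 0.720) and Tgfb1 (Tmem43 0.730, Tnfsf10 0.682, Dkkl1 0.671) had looser neighbours.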

How the data were processed

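The deposited table holds, for 28098 probe sets on 22 arrays, linear intensity values that the authors normalized by RMA, per the submitters' processing notes. No version is given in the sources used here. RMA makes the arrays' distributions nearly equal, so total RNA per cell cannot be compared. The values ran from 1.62 to 11568, with 2 missing cells, none in a tested gene. Here log2 was taken. GEO's platform annotation named the probe sets (21640 with a single gene, 1321 with several, which were left out), of which 21553 matched RefSeq (GRCm38.p6).

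The brightest probe set on average stood for a gene, which was tested if it exceeded the 50th percentile of the array on at least 2 arrays. The test was limma 3.58.1 (R 4.3.3), with 8 group means in 1 model, 14 residual and 5.49 prior degrees of freedom, and 19 contrasts. Errors are standard errors of that model, intervals are at 95%, and tests are two-sided. The number of arrays limits the precision.

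The factors and gene lists were chosen with earlier results of these data known. Named are the 8 factors, Trem2, up to 4 called genes of a list and comparison by smallest adjusted p, and the 3 genes most correlated with each factor, without clones and unnamed loci. Marker lists are given as counts and ranges. Alternatives were a replicate block, other filters, normalizations and probe set rules, other limma options, and leaving arrays out.

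On simulated data of 11830 genes, WT cuprizone against WT control found 49.3% of the 1.5-fold, 89.6% of the 2-fold and 100% of the 4-fold changes, with 4 false calls. For the genotype difference these shares were 13.4%, 62.7% and 98.5%, with 8 false calls. The simulated noise was independent, with 1 SD per gene in all groups, and no array was shifted as the 3 low arrays were. In the real data the spread differed between groups, with an SD of Igf1 of 0.62 in WT cuprizone and 0.017 in WT both. The simulated shares and false calls therefore need not hold for the real arrays.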

Additional observations from a re-analysis of the deposited data

Results flagged for a closer look

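The cuprizone effect on Igf1 differed between the genotypes by -1.78 (log2), by the test of that difference itself (adjusted p = 0.0250). It was picked out because the effect in KO (-0.11) and that in WT (1.66) differed under this test. All 3 WT cuprizone arrays lay above both WT control arrays, while KO cuprizone and KO control overlapped. The call depended on the arrays used, as given above.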

How the results depend on the processing

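Each comparison was refitted in 32 alternative settings, 22 of which left out 1 array each. No called difference changed sign. Igf1 kept its call in all 32 for WT both against WT Covi-Ox, set A and set B against WT both, and KO minus WT over the diets, as did Osm for WT both against WT Covi-Ox and set A against WT both.

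The number of factors called, of 7, moved as follows. Fitting only the arrays of the groups compared gave 0 for WT cuprizone against WT control (Igf1 adjusted p = 0.189), 0 for KO cuprizone against WT cuprizone (Igf1 adjusted p = 0.0647), 0 for the genotype difference (Igf1 adjusted p = 0.556), 0 for set B against KO cuprizone, 1 for set B against WT Covi-Ox and 2 for set B against WT both. Without the 3 low arrays the count was 1 for the Covi-Ox difference of cuprizone effects, WT both against WT cuprizone, set B against KO control, set B against set A and set B against WT Covi-Ox, and 0 for the genotype difference and set B against KO cuprizone. With the mean of the immediate-early genes in the model it was 2 for KO cuprizone against WT cuprizone, WT both against WT cuprizone and set B against WT both, 1 for set B against KO control, set A and WT Covi-Ox, and 0 for set B against KO cuprizone. The 75th percentile filter gave 2 for WT cuprizone against WT control and for KO cuprizone against WT cuprizone, and 1 for set B against KO control. Centring gave 2 for KO cuprizone against WT cuprizone. No filter and quantile normalization each gave 1 for KO minus WT over the diets and 0 for set B against KO cuprizone, where limma's trend and robust options also gave 0. The cause of these moves was not tested.

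Leaving out 1 array gave 0 to 1 for the Covi-Ox difference, KO cuprizone against KO control, set A against KO cuprizone, set B against KO control, set B against set A, set B against WT Covi-Ox, WT both against WT cuprizone and the genotype difference. It gave 1 to 3 for KO cuprizone against WT cuprizone and KO minus WT over the diets, 2 to 3 for set A against WT both, 0 to 2 for set B against KO cuprizone and 1 to 2 for WT cuprizone against WT control. Over all genes, WT cuprizone against WT control called 296, from 69 to 428 with 1 array left out and 9 with only its own arrays.

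Replicate numbers did not pair the arrays: deviations of same-numbered arrays had a median correlation of -0.0004, against 0.0038 for different numbers. With the replicate number as a block, set B against KO cuprizone called 0, and the Osm call there was lost (adjusted p = 0.0624). Set A against WT both called 2 in place of 3, since the Pdgfa call was lost (adjusted p = 0.0514).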
